A study of Homo sapiens with 4 samples.

Results

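Mitochondrial ribosomal protein genes were examined in HCCLM3, a highly metastatic human hepatocellular carcinoma line. Members were genes whose symbol is MRPL or MRPS followed by a number, read by probe sets that carry 1 gene symbol, with pseudogenes left out. This gave 75 genes of 19775 on the array, 48 with MRPL and 27 with MRPS symbols, read by 140 probe sets. Each gene was represented by its brightest probe set, by the log2 signal averaged over 4 arrays. RefSeq lists 77 such symbols, and the other two, MRPS24 and MRPL53, were read only by probe sets shared with a neighbouring gene and were left out.

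The 4 samples were 4 groups of 1 Affymetrix array each, and all came from this line after magnetic sorting on EpCAM, an epithelial adhesion molecule used on liver tumours to sort cells that can initiate them. EpCAM-negative cells were transfected for 4 days with 100 nM miR-429 mimics, a duplex that supplies the mature microRNA, or with 100 nM miR-NC mimics, the negative control (NC). EpCAM-positive cells were given 40 µM Antagomir-429, a cholesterol-conjugated antisense RNA against that microRNA, or 40 µM Antagomir-NC for 4 days. The fractions therefore differ in EpCAM sort, in reagent and in delivery, and the series was made to search for miR-429 targets. With 1 array per group there is no replicate spread, so no difference has a test, an SD or a p-value, and ratios are described by their size beside the same measure over all genes.

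The mitochondrial ribosome translates the few messages of mitochondrial DNA, which encode core subunits of the respiratory chain and of ATP synthase. Its proteins are all encoded in the nucleus, made in the cytosol and imported, and they join ribosomal RNA made inside the organelle. Some descend from bacterial ribosomal proteins, and others were added in the mitochondrial lineage. The ribosome is tethered to the inner membrane, where its hydrophobic products are inserted. Liver cells are rich in mitochondria, and inherited loss of several of these proteins, MRPS16 and MRPL44 among them, causes combined respiratory chain deficiency.

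The treatment supplied or blocked the first of the following RefSeq microRNAs, and it is shown with the family members that share its seed, bases 2 to 8, in capitals. The seed was AAUACUG in all 3. No transcript sequences were used here, so target sites were not searched.
hsa-miR-429: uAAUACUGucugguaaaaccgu
hsa-miR-200b-3p: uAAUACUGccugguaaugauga
hsa-miR-200c-3p: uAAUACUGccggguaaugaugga

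All 75 members were expressed, meaning that the mean log2 signal was at or above the median of all non-control probe sets, a signal of 52.9 that is called the floor, and 13180 genes in all passed it. The members were also above the floor on each array, and above a stricter filter at a signal of 265.6. The median member had a signal of 6370.5 with the NC mimic, 5397 with the miR-429 mimic, 6501 with the NC antagomir and 6138 with antagomir-429. With the expressed genes in 4 equal bins of mean signal, 63 members were in the brightest bin, 10 in the next and 2 below that.

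All 4 arrays had the same trimmed mean signal, 500.1. Of 9 measured markers of the line 5 were expressed. The epithelial keratins KRT8 and KRT18 were bright throughout, with KRT8 between 28365 and 33449. The liver products AFP (91.5 to 119.3) and APOA1 (66.2 to 91.7) were low but above the floor on each array. The hepatocyte product ALB and the biliary keratin KRT19 were under the floor on all 4 arrays. EPCAM had a signal of 1106 on the EpCAM-negative and 1235 on the EpCAM-positive control array, and 3838 with the miR-429 mimic. The pan-leukocyte gene PTPRC and the monocyte gene CD14 were under the floor on each array, and 2 of 5 measured leukocyte markers were expressed, with a summed signal of 177 to 347. Of 8 stromal markers 7 were expressed, led by COL1A1 with 7162 to 10500. Their part in the results was not tested.

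In EpCAM-negative cells most members were lower with the miR-429 mimic than with the NC mimic, by modest amounts. The log2 ratio was below 0 for 53 of 75, against 50.1% of all expressed genes, and above 0 for 22, against 49.9%. Its median was -0.17 against 0.00. Of the members 8 were at least 1.5-fold lower, against 10.9% of all genes, and 0 were at least 1.5-fold higher, against 14.5%. None was past 2-fold in either direction, against 3.76% of all genes lower and 5.25% higher. Of the 8130 genes above the stricter filter, which all 75 members passed, 439 were at least 1.5-fold lower and 806 higher. On the lower side that is a smaller share than that of the members. Past 2-fold there were 36 of these genes lower and 146 higher. Between arrays, 50 of 75 members had their lowest signal on the miR-429 mimic array, 66.7% against 28.6% of all expressed genes.

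**Figure D1:**
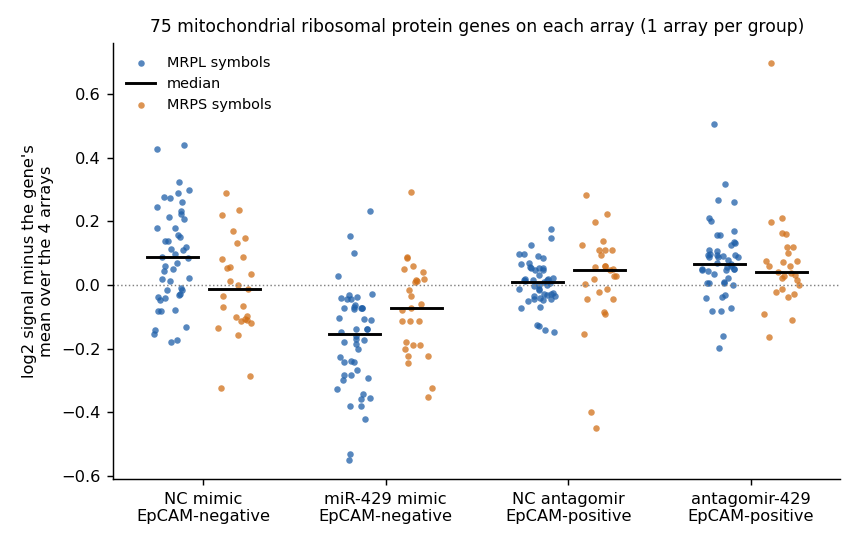
Log2 signal of each of the 75 members minus that gene's mean over the 4 arrays, by array, with MRPL symbols in blue, MRPS symbols in orange and the median of each as a bar. The miR-429 mimic array holds the lowest signal of 50 members, and MRPS33 is the highest point, on the antagomir-429 array.

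The 8 members past 1.5-fold all belong to the large subunit. MRPL1, a protein of the mobile stalk at the tRNA exit side, had signals of 595 with the NC mimic, 306 with the miR-429 mimic, 458 with the NC antagomir and 457 with antagomir-429. Its log2 ratio of -0.96, or 1.95-fold lower, was the lowest of the set, and the miR-429 mimic array stands below the other three. MRPL47, at the rim of the tunnel through which the new protein leaves, had 3820 (NC mimic), 2236 (miR-429 mimic), 3570 (NC antagomir) and 3759 (antagomir-429). Here too the miR-429 mimic array stood alone, with a log2 ratio of -0.77. MRPL23 and MRPL24, further proteins of the tunnel rim, had log2 ratios of -0.68 and -0.66.

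MRPL28, a large-subunit protein of bacterial origin, had signals of 6370.5 (NC mimic), 3969 (miR-429 mimic), 4930.4 (NC antagomir) and 5371 (antagomir-429). The NC mimic array was its highest and the miR-429 mimic array its lowest, with a log2 ratio of -0.68. MRPL38, of the central protuberance, had 891, 555, 743 and 829 on the same arrays in the same order (-0.68). MRPL50, found only in mitochondrial ribosomes, had 1363, 859, 994 and 875, a log2 ratio of -0.67. For MRPL50 the NC mimic array stands above the other three, which lie within 859 to 994. MRPL42 completes the group, with signals of 4163 and 2682 for the mimic pair (-0.63).

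The members that were higher with the mimic lay closer to 0. MRPL45, which anchors the ribosome to the inner membrane, had the highest log2 ratio, 0.40, with signals of 1275 (NC mimic), 1688 (miR-429 mimic), 1298 (NC antagomir) and 1527 (antagomir-429). Both treated arrays were above both control arrays for this gene. MRPS14, a small-subunit head protein of bacterial origin, followed with 0.34, then MRPS27, a helical-repeat protein of the small subunit, with 0.30, MRPS35 with 0.25, MRPL44 with 0.24, MRPS9 with 0.22, MRPS31 with 0.21 and MRPS30 with 0.15. Despite its symbol MRPS30 lies in the large subunit. A second probe set of MRPS31, above the stricter filter, had -0.25. For MRPS14 the EpCAM-positive arrays were higher than either mimic array, at 5418 and 5751 against 4003 with the NC mimic and 5067 with the miR-429 mimic.

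**Figure D2:**
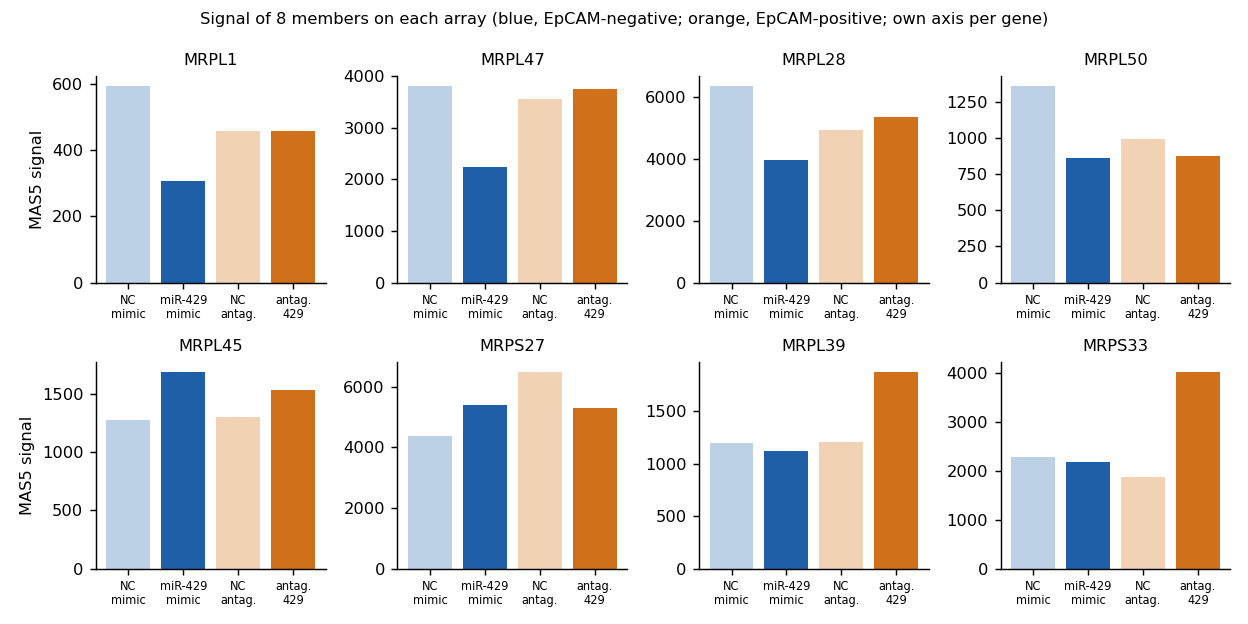
MAS5 signal of 8 members on each of the 4 arrays, with a separate axis starting at 0 for each gene; pale bars are the NC arrays and dark bars the treated ones. MRPL1 and MRPL47 are lowest on the miR-429 mimic array, at 306 and 2236, and MRPS33 and MRPL39 are highest on the antagomir-429 array, at 4026 and 1876.

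These ratios were small beside the scatter of genes of like signal. In the brightest bin the robust SD of the log2 ratio, taken over genes and therefore no replicate error, was 0.36, and the median was -0.10 with 59.5% of genes below 0, where 71.4% of the members in that bin were below 0. MRPL47 was the only member past 2 such SDs of its own bin. That is 1.33% of members on the lower side, against 2.19% of all expressed genes.

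The ratio also moved with gene span, the distance from first to last base of a gene. The members are short genes, with a median span of 8.67 kb against 27.0 kb over all expressed genes. With all expressed genes in 5 equal bins of span, 32 members lay in the shortest bin and 25 in the next. In the shortest bin the brightest bin of genes had a median log2 ratio of -0.29 and the 30 members among them -0.24. In the second bin the values were -0.17 and -0.12 (19 members). In both bins the median of the members was slightly above that of all bright genes. In bins 3 and 4 the order was turned, with -0.02 for bright genes and -0.09 for 4 members, and 0.10 and -0.14 for 8 members, among them MRPL23 and MRPL42. The fifth bin held 2 bright members, with a median of 0.20 against 0.12. MRPL1 spans 90.0 kb, and it lay far below the 0.22 of all genes in its bin. Across the 75 members Spearman's rho of ratio and span was 0.27, and across all expressed genes 0.24; genes on 1 pair of arrays are not independent replicates.

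**Figure D3:**
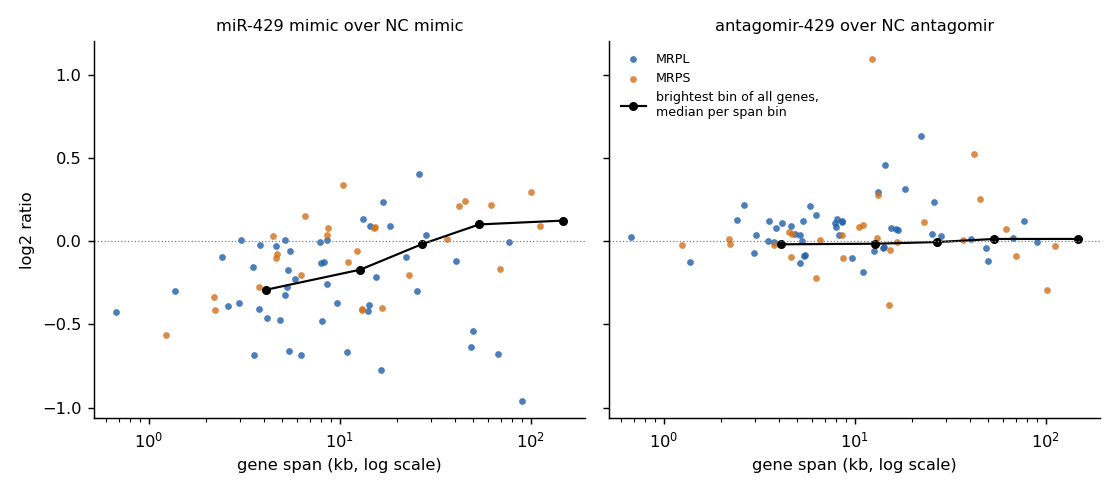
Log2 ratio of each member against the span of its gene in kb on a log axis, for the mimic (left) and the antagomir (right), with the median of the brightest bin of all expressed genes in 5 span bins as a black line. On the left the line climbs from -0.29 in the shortest bin to 0.12 in the longest, and most members lie at short spans; on the right it is flat.

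Some measures of RNA and hybridisation also differed within the mimic pair. The poly-A spike-in probe sets had a median log2 ratio of -0.90 and the hybridisation controls -0.41. The 3′ to 5′ signal ratio of actin was 2.63 on the miR-429 mimic array against 3.41 on its control. That of GAPDH was nearly the same on both, 0.918 against 0.915. In the antagomir pair the same controls were at 0.07 and 0.03, the actin ratios at 3.07 and 3.12 and those of GAPDH at 0.90 and 0.92. For the NC antagomir array over the NC mimic array, spike-ins and hybridisation controls were at -0.44 and -0.21. The part of span, spike-ins and RNA measures in the members' ratios was not tested.

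With the NC antagomir array of EpCAM-positive cells as the control in place of the NC mimic array, 61 of 75 members were below 0, against 49.4% of all genes, and the median was -0.13. Only MRPL47 was then at least 1.5-fold lower (-0.68), against 8.68% of all genes, and only MRPS31 at least 1.5-fold higher (0.74), against 13.7%. None was past 2-fold (3.23% lower and 5.36% higher over all genes). Of the 8130 genes above the stricter filter, 347 were at least 1.5-fold lower and 581 higher by this ratio. Among the members highest over the NC mimic, MRPL45 kept 0.38, while MRPS14 turned to -0.10 and MRPS27 to -0.27. MRPL1 had -0.58, MRPL38 -0.42, MRPL28 -0.31 and MRPL50 -0.21. Both ratios use the same miR-429 mimic array, so they are not independent.

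In EpCAM-positive cells most members lay close to 0 with antagomir-429, and MRPS33 and MRPL39 were past 1.5-fold. The median log2 ratio was 0.04 against 0.01 over all expressed genes, and 49 of 75 were above 0, against 51% of all genes. As many as 45 members, 60.0%, were within 0.1 of 0, against 27.2% of all expressed genes. In the brightest bin, where all genes scatter less, the shares were 65.1% of members and 50.1% of genes. Past 1.5-fold there were 2 members higher and 0 lower, against 9.35% and 8.29% of all genes. Past 2-fold there was 1 higher and 0 lower, against 3.72% and 3.53%. Of the 8130 genes above the stricter filter, 203 were at least 1.5-fold higher and 159 lower. Past 2-fold 24 of them were higher and 15 lower, so genes as bright as the members also seldom passed these folds.

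**Figure D4:**
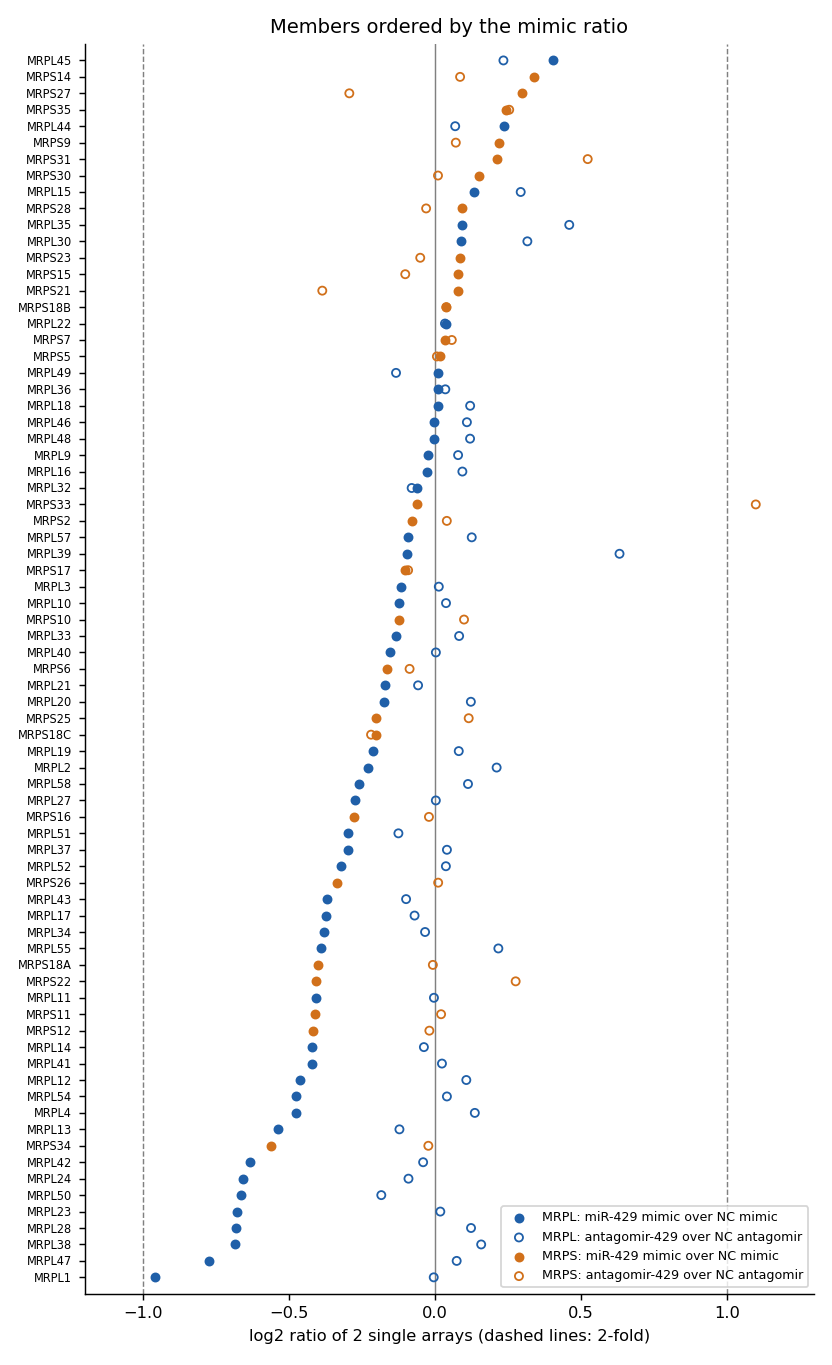
Log2 ratio of each of the 75 members, ordered by the mimic ratio, with filled points for the mimic comparison and open points for antagomir-429 over the NC antagomir. The filled points run from -0.96 (MRPL1) to 0.40 (MRPL45), and the open points from -0.39 (MRPS21) to 1.10 (MRPS33), with 45 of them within 0.1 of 0.

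MRPS33, a small-subunit protein with no bacterial counterpart, was the member past 2-fold. Its signals were 2279 with the NC mimic, 2186 with the miR-429 mimic, 1880 with the NC antagomir and 4026 with antagomir-429, a log2 ratio of 1.10 or 2.14-fold higher. The antagomir-429 array stands alone, and the other three lie within 1880 to 2279. Only 1 probe set reads this gene, and its _s_at name says that its probes may also bind other transcripts. Over the NC mimic array in place of the NC antagomir array its log2 ratio was 0.82. By that ratio 2 members, MRPS33 and MRPL39 (0.65), were at least 1.5-fold higher against 12.3% of all genes, and 1, MRPL50 (-0.64), lower against 12.1%. None was past 2-fold (4.5% higher and 4.92% lower over all genes). Of the 8130 genes above the stricter filter, 667 were at least 1.5-fold higher and 435 lower by that ratio.

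MRPL39, a mitochondria-specific protein of the large subunit, was the other member past 1.5-fold. Its signals were 1197, 1119, 1210 and 1876 in the same order of arrays, and the antagomir-429 array again stands apart (log2 ratio 0.63). Its second probe set was under the floor on all 4 arrays. MRPS31, of the small-subunit head, had 457, 529, 316 and 455 (0.52), so that here the NC antagomir array is the low one, and over the NC mimic array its ratio was -0.01. MRPL35 had 0.46, MRPL30 0.32, MRPL15 0.29, MRPS22 0.28 and MRPS35 0.25. The other probe sets of MRPS22, all above the stricter filter, had -0.04, 0.04 and -0.40.

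The lowest ratios with the antagomir were smaller. MRPS21, a small-subunit protein of bacterial origin, had signals of 7940.1, 8378, 9721 and 7439, a log2 ratio of -0.39, with the NC antagomir array above the other three. MRPS27 had 4387, 5397, 6501 and 5305 (-0.29), and the NC antagomir array was again the high one. MRPS18C had -0.22, MRPL50 -0.18, and MRPL49, MRPL51, MRPL13 and MRPS15 between -0.13 and -0.10. By the scatter of their own signal bins (0.15 in the brightest), MRPS33, MRPL39 and MRPL30 were past 2 robust SDs above 0, 4.0% of members against 4.83% of all expressed genes. MRPS21 was past 2 below 0, 1.33% against 4.09%. These shares rest on 3 members and 1 member, and the one above 0 lies close to that of all genes.

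The mimic and antagomir comparisons share no array. In 33 of 75 members, 44.0%, the ratio was below 0 with the mimic and above 0 with the antagomir, against 23.1% of all expressed genes. The product of the members' single shares, 70.7% below 0 with the mimic and 65.3% above 0 with the antagomir, is 46.2%, so the pair of signs was no more frequent than the separate counts give. A further 20 members were lower in both and 16 higher in both. Of the 13180 expressed genes, 3553 were lower in both and 3677 higher in both. The remaining 6 members had the opposite pair, 8.0% against 22.0%. No member was past 1.5-fold in opposite directions. Of the 8 members past 1.5-fold with the mimic, MRPL38 had the highest antagomir ratio, 0.16. Pearson's r between the ratios was 0.18 across the 75 members and 0.07 across all expressed genes, as a description over genes that share their arrays.

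**Figure D5:**
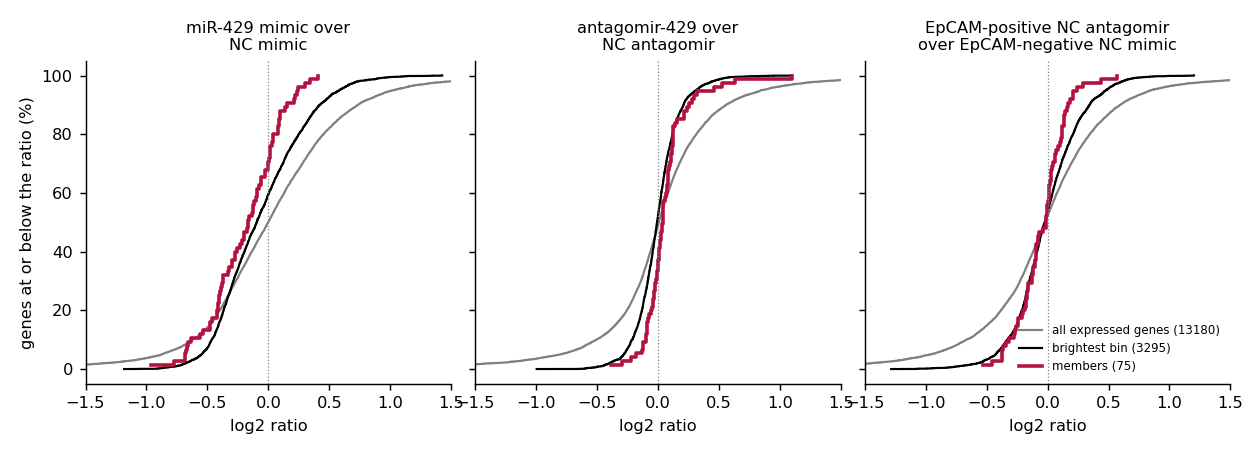
Cumulative share of genes at or below each log2 ratio in the 3 comparisons, for all expressed genes (grey), their brightest bin (black) and the 75 members (red). With the mimic the medians are -0.17 for members and -0.10 for the brightest bin; in the other panels the medians lie near 0.

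Between the control arrays of the sorted fractions, EpCAM-positive NC antagomir over EpCAM-negative NC mimic, the members hardly differed as a group. The median log2 ratio was -0.01 against -0.02 over all genes, with 42 of 75 below 0 against 52.2% of all genes. None was past 1.5-fold, where 12% of all genes were lower and 10.3% higher, or past 2-fold (4.7% and 3.62%). Of the 8130 genes above the stricter filter, 383 were at least 1.5-fold lower and 461 higher, and 60 were past 2-fold on each side. This comparison shares a control array with each of the others. The highest was MRPS27 with 0.57, followed by MRPS14 (0.44), MRPS21 (0.29), MRPS15 (0.24), MRPS10 and MRPL52 (both 0.21), MRPS18C (0.18) and MRPS7 (0.17). The lowest was MRPS31 with -0.53, followed by MRPL50 (-0.46), MRPL1 and MRPS22 (both -0.38). MRPS18A and MRPL28 (both -0.37), MRPL55 (-0.34) and MRPL14 (-0.32) came next. The second probe set of MRPS18A, nearly as bright, had 0.007. MRPS27 was the only member past 2 robust SDs of its signal bin, 1.33% of members against 4.10% of all expressed genes above 0, and 0 were past it below 0, against 3.86%.

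By role, the MRPL symbols lay further below 0 with the mimic than the MRPS symbols. Of 48 MRPL genes 39 were below 0, with a median of -0.24, and 38 had their lowest signal on the miR-429 mimic array. Of 27 MRPS genes 14 were below 0, with a median of -0.06, and 12 were lowest there. The median of the MRPS symbols had no settled sign: it was 0.00 with quantile normalization and 0.03 with the median over probe sets, and -0.10 with the NC antagomir array as control, where the MRPL median was -0.13. The MRPL genes were also the shorter ones, with a median span of 8.19 kb against 12.3 kb. MRPS18A and MRPS30 count among the MRPS symbols here, though both lie in the large subunit. The difference between the symbol groups was not tested.

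The members other than MRPS18A and MRPS18B, which were in neither origin list, were also divided by subunit and origin, for the mimic first. In the large subunit, 30 proteins of bacterial origin had a median of -0.22 with 24 below 0, and 19 mitochondria-specific ones -0.26 with 15 below 0. In the small subunit, 15 of bacterial origin had -0.08 with 8 below 0, and 9 mitochondria-specific ones -0.06 with 5 below 0. With the antagomir the 4 medians lay between -0.02 and 0.12.

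Within the large subunit, 6 proteins of the exit tunnel rim had a median of -0.52 with the mimic. They divided, with MRPL47, MRPL23, MRPL24 and MRPL17 (-0.37) below 0 and MRPL22 (0.04) and the membrane anchor MRPL45 above it. The stalk that recruits translation factors, MRPL10, MRPL11 and MRPL12, was below 0 for all 3. MRPL12, its mobile arm, had signals of 8675 (NC mimic), 6303 (miR-429 mimic), 7655 (NC antagomir) and 8247 (antagomir-429), a log2 ratio of -0.46, with the miR-429 mimic array the lowest. Of 8 proteins of the central protuberance, which contacts the small subunit, 7 were below 0 with the mimic (median -0.21) and 8 above 0 with the antagomir (median 0.12). With the control arrays exchanged, 8 were below 0 with the mimic (median -0.07) and 4 above 0 with the antagomir (median 0.05). Over the NC antagomir the ratios with the antagomir included MRPL55 (0.22) and MRPL58, a peptidyl-tRNA hydrolase built into the ribosome (0.11).

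The human genome holds 3 descendants of bacterial ribosomal protein S18. They sit in different places: MRPS18A in the large subunit, and MRPS18B and MRPS18C in the small. MRPS18A had signals of 5570.2 (NC mimic), 4220.1 (miR-429 mimic), 4302 (NC antagomir) and 4280.4 (antagomir-429). By this probe set the NC mimic array stands above the others. Its second probe set, nearly as bright, had 4530, 3967, 4551 and 3451 in that order, so the NC mimic array did not stand apart. That probe set had a log2 ratio of -0.40 with the antagomir, where the brightest had -0.007. MRPS18B had 6529, 6706, 7294 and 7493 in that order, with the EpCAM-positive arrays above the others. MRPS18C had 4835, 4203, 5493 and 4720, with the NC antagomir array highest. Their mimic ratios were -0.40, 0.04 and -0.20.

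The probe sets of a gene did not always give the same ratio. Of 20 members with 2 or more probe sets above the stricter filter, 15 had 1 sign in all of them with the mimic, 12 with the antagomir and 15 between the controls. The median spread among them was 0.22, 0.11 and 0.21 log2 units. MRPL50, MRPS18A and MRPS18B gave a common sign with the mimic: the second probe set had -0.40, -0.19 and 0.27. MRPL57 disagreed most with the antagomir: its 4 probe sets had 0.13, 0.66, -0.47 and 0.50. MRPL30 disagreed most with the mimic: its 5 probe sets, all above the stricter filter, ran from -0.38 to 0.52. With the antagomir those of MRPL30 ran from -0.05 to 0.60. Dim second probe sets went further: that of MRPL47, with signals of 41 to 93, had 0.94 with the mimic, and that of MRPS23, with 7 to 147, had 4.37 with the antagomir where the bright probe set had -0.05. The dim second probe sets of MRPL20 (signals of 31 to 95) and MRPL12 (28 to 150) had -1.63 and -1.11 with the mimic. With the antagomir they had 1.42 and -1.47, where the bright probe sets had 0.12 and 0.11. The 4 probe sets of MRPS12 ran from -0.35 to 0.74 with the antagomir. MRPL1, MRPL23, MRPL28, MRPL24 and MRPS33 had no second probe set above the stricter filter.

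Promoters were read for what the members share apart from their symbols. RefSeq windows on GRCh38.p14 from 250 bases before to 50 after the annotated start were at hand for 67 of 75 members, and motifs were searched on both strands. The YY1 motif AAGATGGC was in 19 of the 67, 28.4%, against 3.91% of 15842 protein-coding windows and 3.03% of all 27305. With 1 more letter, AAGATGGCG, it was in 12 (17.9% against 2.74% of protein-coding windows), and followed by GG in those same 12 (17.9% against 1.93%). The shorter form was added after the windows had been read. The 8-letter form lay in the direction of the gene in 16 of 20 matches (80.0%), against 73.0% of 647 matches in protein-coding windows. The median match began 9 bases after the start in members and 10 in protein-coding windows, so direction and position were near those of coding genes at large. The ETS motif CCGGAAGT, bound by GABP among others, was in 10 (14.9% against 6.19%). The NRF1 motif GCGCATGCG was in 3 (4.48% against 2.76%) and its looser form GCGCANGCG in 13 (19.4% against 11.02%). Followed by C, as in the full palindrome, these were in 1 (1.49% against 1.75%) and 8 (11.9% against 8.57%). The E-box CACGTG was in 6 (8.96% against 8.88%) and CCAAT in 20 (29.9% against 36.4%). A match is a run of letters, not a measured binding site.

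The windows below were chosen after their values were seen, as members at the ends of the ratios with and without these letters. Capitals mark AAGATGGC, with the following GG where present, or CCGGAAGT on either strand. MRPL38 lies at chr17:75904835-75905134 (minus strand), MRPL50 at chr9:101398569-101398868 (minus strand), MRPS30 at chr5:44808697-44808996 (plus strand), MRPL1 at chr4:77862580-77862879 (plus strand) and MRPS33 at chr7:141014903-141015202 (minus strand). MRPL38 and MRPL50 were lower with the mimic and MRPS30 was not, and all 3 hold AAGATGGCG just after the start. MRPL1, the lowest with the mimic, and MRPS33, the highest with the antagomir, have none of the letters searched here in capitals.
MRPL38: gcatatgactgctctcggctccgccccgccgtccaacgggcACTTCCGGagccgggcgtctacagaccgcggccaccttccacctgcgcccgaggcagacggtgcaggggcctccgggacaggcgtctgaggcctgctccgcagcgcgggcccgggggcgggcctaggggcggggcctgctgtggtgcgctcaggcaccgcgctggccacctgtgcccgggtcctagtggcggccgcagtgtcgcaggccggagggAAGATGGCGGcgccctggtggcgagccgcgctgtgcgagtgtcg
MRPL50: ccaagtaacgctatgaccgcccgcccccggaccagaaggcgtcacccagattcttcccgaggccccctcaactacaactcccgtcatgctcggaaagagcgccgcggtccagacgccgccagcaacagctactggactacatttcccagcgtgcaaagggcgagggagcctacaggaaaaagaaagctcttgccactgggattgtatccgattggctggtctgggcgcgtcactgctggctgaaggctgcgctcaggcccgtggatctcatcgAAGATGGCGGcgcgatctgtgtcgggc
MRPS30: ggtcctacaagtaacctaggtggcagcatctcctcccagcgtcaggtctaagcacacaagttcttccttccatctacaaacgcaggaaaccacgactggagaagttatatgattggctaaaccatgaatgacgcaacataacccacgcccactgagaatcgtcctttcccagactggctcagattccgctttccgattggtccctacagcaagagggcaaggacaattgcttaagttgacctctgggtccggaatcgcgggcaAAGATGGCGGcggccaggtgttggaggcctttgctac
MRPL1: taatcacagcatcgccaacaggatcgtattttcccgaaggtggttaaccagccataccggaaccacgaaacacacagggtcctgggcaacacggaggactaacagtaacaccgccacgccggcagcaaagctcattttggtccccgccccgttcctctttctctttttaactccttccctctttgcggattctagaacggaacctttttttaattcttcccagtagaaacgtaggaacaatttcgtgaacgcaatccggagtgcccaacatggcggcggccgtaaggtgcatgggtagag
MRPS33: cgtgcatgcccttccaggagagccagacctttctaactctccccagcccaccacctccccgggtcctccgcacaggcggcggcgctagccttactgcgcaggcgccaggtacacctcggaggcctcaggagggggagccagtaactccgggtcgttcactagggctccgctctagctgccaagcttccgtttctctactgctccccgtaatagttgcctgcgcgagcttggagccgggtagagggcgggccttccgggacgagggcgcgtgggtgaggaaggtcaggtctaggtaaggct

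The mimic ratio was similar with and without the YY1 letters. Members with AAGATGGCG had a median of -0.09 (12 genes) and those without -0.17 (55). For CCGGAAGT the medians were -0.31 (10 genes) and -0.12 (57). YY1 itself had signals of 6735 with the NC mimic, 10439 with the miR-429 mimic, 8177 with the NC antagomir and 8686 with antagomir-429, and NRF1, another activator of mitochondrial genes, lay between 807 and 917 on the 4 arrays.

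The other pathway lists had medians between -0.05 and 0.13 with the mimic, against -0.17 for the members. With the NC antagomir array as control this order did not hold, with the assembly factors at -0.14, the RNA handling genes at -0.08 and the transcription factors at -0.05 beside -0.13 for the members. Of ribosomal proteins under other symbols, 4 were expressed. GADD45GIP1, of the large subunit, had -0.73 and PTCD3, of the small subunit, 0.66, with DAP3 at 0.31 and CHCHD1 at -0.09. Of 21 expressed assembly factors 13 were below 0 (median -0.05) and 0 were past 2-fold, the largest being FASTKD2 (0.48) and the GTPase NOA1 (0.43). Of 11 translation factors 5 were below 0 (median 0.03) and 0 past 2-fold, the largest being the release factor MTRF1 (-0.59) and the elongation factor GFM1 (0.46).

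Of 17 expressed mitochondrial tRNA synthetases 7 were below 0 (median 0.12), and 1 was past 2-fold, the methionyl enzyme MARS2. Its signals were 120 with the NC mimic, 269.9 with the miR-429 mimic, 191 with the NC antagomir and 115 with antagomir-429. Its log2 ratio was 1.17, and it was -0.73 with the antagomir, so the miR-429 mimic array is the high one. Of 15 genes of mitochondrial transcription and RNA handling 6 were below 0 (median 0.05) and 0 past 2-fold, the largest being GRSF1 (0.64) and the helicase SUPV3L1 (0.61). Of 12 transcription factors linked to these genes 3 were below 0 (median 0.13). The coactivator PPARGC1A had signals of 48.1, 100.4, 39.3 and 81.1, higher by at least 1.90-fold under the mimic and 1.53-fold under the antagomir, since both control signals are under the floor.

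With the antagomir the same lists had medians between 0.00 and 0.26, the last over the 4 ribosomal proteins under other symbols. Of the translation factors 10 of 11 were above 0, against 51% of all expressed genes, led by GFM1 (0.52) and MTRF1L (0.34). With the NC mimic array as control 8 of 11 were above 0, against 48.8%, and their median was 0.06 in place of 0.12. The assembly factors had a median of 0.03, with MRM1, which methylates the large ribosomal RNA, at -0.67, and the synthetases one of 0.11. The RNA handling list was at 0.00, with TRMT10C, a subunit of the tRNA-processing nuclease, at 0.61. Between the controls the medians ran from -0.05 to 0.22. There ERAL1, a chaperone of the small ribosomal RNA, had 0.61, MTPAP, the mitochondrial poly(A) polymerase, 0.62, and MTRF1 -0.72.

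Set beside 2 related groups, the mitochondrial ribosomal proteins lay nearer to 0 with the mimic. Of 51 expressed cytosolic ribosomal proteins 50 were below 0 (median -0.36), and of 70 nuclear-encoded respiratory chain subunits 67 were (median -0.33), against 53 of the 75 members and a median of -0.17. With the antagomir the 3 medians were 0.05, -0.01 and 0.04, and between the controls -0.19, -0.14 and -0.01. These differences between groups were not tested.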

How the data were processed

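Total RNA of 4 sorted HCCLM3 samples was measured on Affymetrix U133 Plus 2.0 arrays, 1 per group. The values deposited by the authors are log2 signals of MAS5, per the submitters' processing notes. The MAS5 version is not given in the sources used here, and calls of presence were not used. Once converted back from log2, every array had a trimmed mean of 500.1 (2% trimmed at each end), so no further scaling was applied.

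Of 54675 probe sets 62 are controls and were left out of gene counts. The platform annotation gave 1 symbol for 41097 probe sets, several for 1801 and none for 11777, and 41043 of the first matched RefSeq (GRCh38.p14), which also gave gene spans. Ratios are log2 differences between single arrays with no offset, and no test was made. Where a control signal was under the floor, the floor stood in for it in the fold. Called means past 1.5-fold or 2-fold. Named members were the 8 largest ratios in each direction per comparison, all past 2-fold, those with probe sets over 1 log2 unit apart, the S18 paralogs and MRPL12. From each pathway list, genes past 2-fold or the 2 largest were named. Others (MRPS34, CHCHD1, DAP3, YY1, NRF1 and group examples) were chosen after their values were seen. Members and lists were chosen with earlier results of these data known. Python 3.11.15, pandas 2.3.3 and scipy 1.17.1 were used; the computation of ratios and counts was checked on simulated data, where 200 of 200 changed genes were recovered. The closing section gives the alternatives tried.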

Additional observations from a re-analysis of the deposited data

How the results depend on the processing

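With 1 array per group no result has a replicate check, and no replicate could be left out. No paired analysis was possible because each group had 1 array. The mimic median of the members stayed below 0 under all 8 alternatives, between -0.27 and -0.11. Median centring, which shifts all genes alike, moved the median of all genes in that comparison to -0.11 and that of the members to -0.27, with 9 members above 0. Quantile normalization narrowed the gap between the members and all genes from -0.16 to -0.08. Under median centring and under quantile normalization 1 member, MRPL1, was at least 2-fold lower. The filters and the offset moved no count by over 1.5 times. Shares over all genes are given only for the main setting and the exchanged control arrays. Counts of members under the other alternatives therefore have no such share beside them.

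With the NC antagomir array as the mimic's control, 14 members were above 0, 1 was at least 1.5-fold higher and 1 lower. With the NC mimic array as the antagomir's control the median turned to -0.0069, 1 member was at least 1.5-fold lower and 0 were 2-fold higher.

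With the median over all probe sets, which lets in dim ones, the mimic comparison had 3 members at least 1.5-fold higher, 2 at least 2-fold higher and 1 at least 2-fold lower. With the antagomir 4 were at least 1.5-fold higher and 4 lower, and 2 and 3 were past 2-fold. Between the controls 2 were at least 1.5-fold higher and 5 lower, and 2 and 1 were past 2-fold. With no share over all genes beside them, these counts cannot be read as many or few. MRPL47 then had 0.083 with the mimic and MRPL39 -1.25 with the antagomir, both with the sign turned.

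Without _s_at and _x_at probe sets 39 members were left, which by itself lowers the counts. With the mimic 24 were below 0, 1 was at least 1.5-fold higher, 4 lower and 1 was 2-fold lower. With the antagomir 25 were above and 14 below 0, 0 were at least 1.5-fold higher and 2 lower, and 0 and 1 were past 2-fold. Between the controls 19 were above and 20 below 0, and 1 was past 1.5-fold on each side. These counts too have no share over all genes beside them. Of 451 values of single named members over these alternatives, 25 changed sign, 10 of them with the median over probe sets, 9 with the other control array, 4 without _s_at and _x_at probe sets and 1 each with median centring and quantile normalization. With the other control array, MRPS27 turned in both comparisons, to -0.27 with the mimic and 0.27 with the antagomir, and MRPS31 turned to -0.0069 with the antagomir. MRPL35 turned to -0.65 with the antagomir without _s_at and _x_at probe sets. The causes were not tested.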

Other observations

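Some pathway genes were higher with both treatments over their own controls, in comparisons that share no array. The same pair of signs was found in 3677 of the 13180 expressed genes. PTCD3, a small-subunit protein that binds messages, had signals of 301 with the NC mimic, 478 with the miR-429 mimic, 295 with the NC antagomir and 414 with antagomir-429, so that both treated arrays lay above both controls. GFM1, the elongation factor that moves the ribosome along the message, had 872, 1199, 873 and 1254 in the same order, and DAP3, a GTP-binding small-subunit protein, 6443, 7982, 6705 and 8618. These genes were chosen after their values were seen, and the pattern was not tested.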
